A study of Mus musculus with 68 samples.

Results

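Described here are 8 mouse genes of the Lin28 and let-7 axis: Lin28a, Lin28b, Trim71, Mycn, Hmga2, Igf2bp1, Igf2bp2 and Igf2bp3. They were found by Ensembl identifier among the 21948 genes of the deposited expression table, where all 8 were present. They were chosen by what Lin28a showed in earlier results of these data: its log2 change between the first and last stage in the wildtype arches selected the axis, so the wildtype stage change is described without a test. RNA was measured by sequencing in hand-dissected pharyngeal arches, the paired swellings beside the embryonic throat, in mouse embryos of the strain label CBA/Ca/J x C57BL/10. The jaws form from PA1, and PA2 lies next to it on the tail side. The 68 libraries fall into 16 groups of 3 to 5 embryos, by arch, genotype label (wildtype or Hoxa2-/-) and stage (E9.0, E9.5, E10.0 or E10.5, in days of embryonic development). The embryos numbered 35, and 33 of them gave both arches. Hoxa2 is a homeobox transcription factor gene active in PA2, and no other allele or treatment is given in the labels. The 8 genes were at or above 1 CPM (reads scaled to a common library size) in each of the 68 libraries, with at least 67 reads for Lin28a, the gene with the fewest.

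As background, the let-7 microRNAs are short RNAs that bind messenger RNAs through their seed and lower protein output, and they accumulate as embryonic tissues mature. Lin28a and Lin28b encode RNA-binding proteins that bind let-7 precursors and block their maturation, while let-7 in turn targets the Lin28 messages, so that the 2 sides restrain each other. Trim71 is the mouse relative of worm lin-41, a classic let-7 target that acts as an RNA-binding repressor in early embryos. Hmga2, a chromatin protein gene, and the Igf2bp genes, which encode RNA-binding proteins of messenger RNA transport and stability, are also known let-7 targets, and Mycn encodes a growth-promoting transcription factor.

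The mature let-7 sequences show the shared feature on which this axis rests. In the RefSeq table for GRCm38.p6, 10 mature mouse names carried the same seed, which is bases 2 to 8 and is printed in capitals in the 4 examples here.
mmu-let-7a-5p: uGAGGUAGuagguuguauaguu
mmu-let-7c-5p: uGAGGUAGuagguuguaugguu
mmu-let-7f-5p: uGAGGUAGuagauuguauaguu
mmu-let-7g-5p: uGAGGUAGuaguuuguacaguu
The examples are let-7a, a commonly cited member, and let-7c, let-7f and let-7g, whose host transcripts are described further on. Mature let-7 itself is not captured from polyadenylated RNA and was not measured.

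The letters CTACCTC, the complement of the seed, were searched on the sense strand of each gene's longest annotated 3′ UTR (GENCODE M21). They occurred in 10.6% of the 15236 genes with a 3′ UTR, and CTACCTCA, the same letters followed by A, occurred in 3.67%. The UTRs of 7 of the 8 genes held CTACCTC; these 7 sites, each the first match followed by A, are printed with the match in capitals because they are the letters through which let-7 could pair.
Lin28a: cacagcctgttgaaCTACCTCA
Lin28b: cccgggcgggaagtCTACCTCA
Hmga2: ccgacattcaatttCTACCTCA
Igf2bp1: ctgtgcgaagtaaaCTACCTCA
Igf2bp2: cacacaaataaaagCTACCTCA
Igf2bp3: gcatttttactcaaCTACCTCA
Trim71: acattgcctaagtcCTACCTCA
All 7 lie on the minus strand of GRCm38: Lin28a at chr4:134005189-134005210, Lin28b at chr10:45381022-45381043 and Hmga2 at chr10:120364224-120364245. The Igf2bp1 site is at chr11:95961778-95961799, that of Igf2bp2 at chr16:22059473-22059494, that of Igf2bp3 at chr6:49086787-49086808 and that of Trim71 at chr9:114512472-114512493. Lin28b, Hmga2, Igf2bp1 and Trim71 held 4 matches each, in UTRs of 4445, 3014, 6337 and 5512 bases. Among UTRs of like length (a ratio of at least 0.8 between the shorter and the longer), 0.334%, 0.146%, 0.38% and 0.545% held at least as many. These are shares of 1198, 2058, 527 and 734 UTRs. Each set includes the gene itself and any other of the 8 genes of like length. Lin28a held 2 matches in 2775 bases, a number reached by 2.32% of like UTRs. Igf2bp2 and Igf2bp3 held 1 each in 1784 and 2119 bases, and 12.5% and 13.8% of like UTRs held at least 1. The letters were not in the 913 bases of the Mycn UTR, where 7.82% of like UTRs held them. A match is a description of the sequence and not a measured site.

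The genes themselves are protein-coding and lie on the minus strand of GRCm38. Lin28a (ENSMUSG00000050966) spans chr4:134003330-134018841, Lin28b (ENSMUSG00000063804) chr10:45376620-45486395 and Hmga2 (ENSMUSG00000056758) chr10:120361275-120476469. Igf2bp1 (ENSMUSG00000013415) spans chr11:95957163-96005940, Igf2bp2 (ENSMUSG00000033581) chr16:22059009-22163299 and Igf2bp3 (ENSMUSG00000029814) chr6:49085223-49214957. Trim71 (ENSMUSG00000079259) spans chr9:114507133-114564369 and Mycn (ENSMUSG00000037169) chr12:12936093-12941914.

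Features of the libraries bear on what can be compared. Total reads recovered per library ran from 8912251 to 20619153. The 24 wildtype libraries of the stages other than E10.0 had the transcription regulator genes Ski at 26.3 to 108 CPM and Irf2bp2 at 26.6 to 82.6 CPM. The 10 wildtype libraries of E10.0 had Ski at 9.52 to 15.5 and Irf2bp2 at 7.36 to 13.5 CPM, and the 34 libraries labelled Hoxa2-/- had 9.28 to 22.8 and 7.62 to 19.1 CPM. The libraries thus fall into 2 sets that the stages do not explain. At the stages other than E10.0 the division and the label cannot be told apart, and wildtype steps into or out of E10.0 cross it. Hoxa2 was not lower in the libraries labelled Hoxa2-/-: PA2 means from E9.0 to E10.5 were 28.7, 60.7, 97.7 and 132 CPM, against 22.3, 40.7, 47.5 and 58.3 CPM in wildtype PA2. Which part of the gene was deleted is not given in the sources used here, so reads outside that part could remain. The label could not be checked from this level, and the libraries are called labelled Hoxa2-/- throughout. All 6 arch mesenchyme markers (Prrx1, Twist1, Pdgfra, Dlx2, Tfap2a and Alx1) were in the table, and their summed level at E9.0 and E10.5 ran from 170.2 to 643.5 CPM. In such bulk samples, fewer cells of a type and less RNA per cell cannot be told apart.

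Lin28a fell steeply with stage in the libraries labelled Hoxa2-/-, and it was the member with the largest change in both arches. In PA1 its level was 212, 169, 189.6 and 169 CPM at E9.0, and 166, 155, 112, 86.5 and 128 CPM at E9.5. It was 81.7, 45.4, 56.3, 62.6 and 62.0 CPM at E10.0, and 11.3, 31.2 and 31.9 CPM at E10.5. Every PA1 library of E10.5 lay below every earlier one, and the E10.0 libraries lay below those of E9.5. The log2 change from E9.0 to E10.5 was -2.98 (SE 0.26, adjusted p = 1.99e-13 by limma), and the mean was 7.46-fold lower. Log2 changes are on the log2(CPM + 1) scale, which slightly understates the change of low genes.

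In PA2 labelled Hoxa2-/-, Lin28a was at 123, 134, 129 and 116 CPM at E9.0, and at 119.6, 116, 108, 87.2 and 95.8 CPM at E9.5. The E10.0 libraries had 73.7, 52.9, 69.4, 69.6 and 71.7 CPM, and the E10.5 libraries 16.9, 35.1 and 38.1 CPM. The E9.0 and E9.5 libraries overlapped, those of E10.0 lay lower and those of E10.5 lower still. Lin28a fell by 2.11 on the log2 scale from E9.0 to E10.5 (SE 0.26, adjusted p = 3.53e-09 by limma), a 4.18-fold lower mean. Embryo 1 had the lowest Lin28a of the 3 embryos at E10.5 in both arches. The smallest changes with any library left out were -2.51 in PA1 and -1.75 in PA2.

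In wildtype, described without a test, Lin28a reached a lower level at E10.5. Wildtype PA1 had 172, 179, 193, 148 and 206 CPM at E9.0, and 152, 189.6, 148, 173 and 131 CPM at E9.5. It had 48.8, 91.5, 49.4, 99.6 and 71.6 CPM at E10.0, and 7.03, 3.53 and 8.54 CPM at E10.5. The E9.0 and E9.5 libraries overlapped, and those of E10.0 and of E10.5 each lay below all earlier ones. Wildtype PA2 had 133, 143, 186 and 138 CPM at E9.0, 116, 141, 137 and 107 CPM at E9.5, 58.6, 86.6, 51.4, 92.5 and 56.7 CPM at E10.0, and 10.3, 5.64 and 10.6 CPM at E10.5. The order of the stages was thus the same as in PA1, with overlap only between E9.0 and E9.5. The wildtype means at E10.5 were 28.2-fold lower in PA1 and 17.0-fold lower in PA2 than at E9.0.

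**Figure D1:**
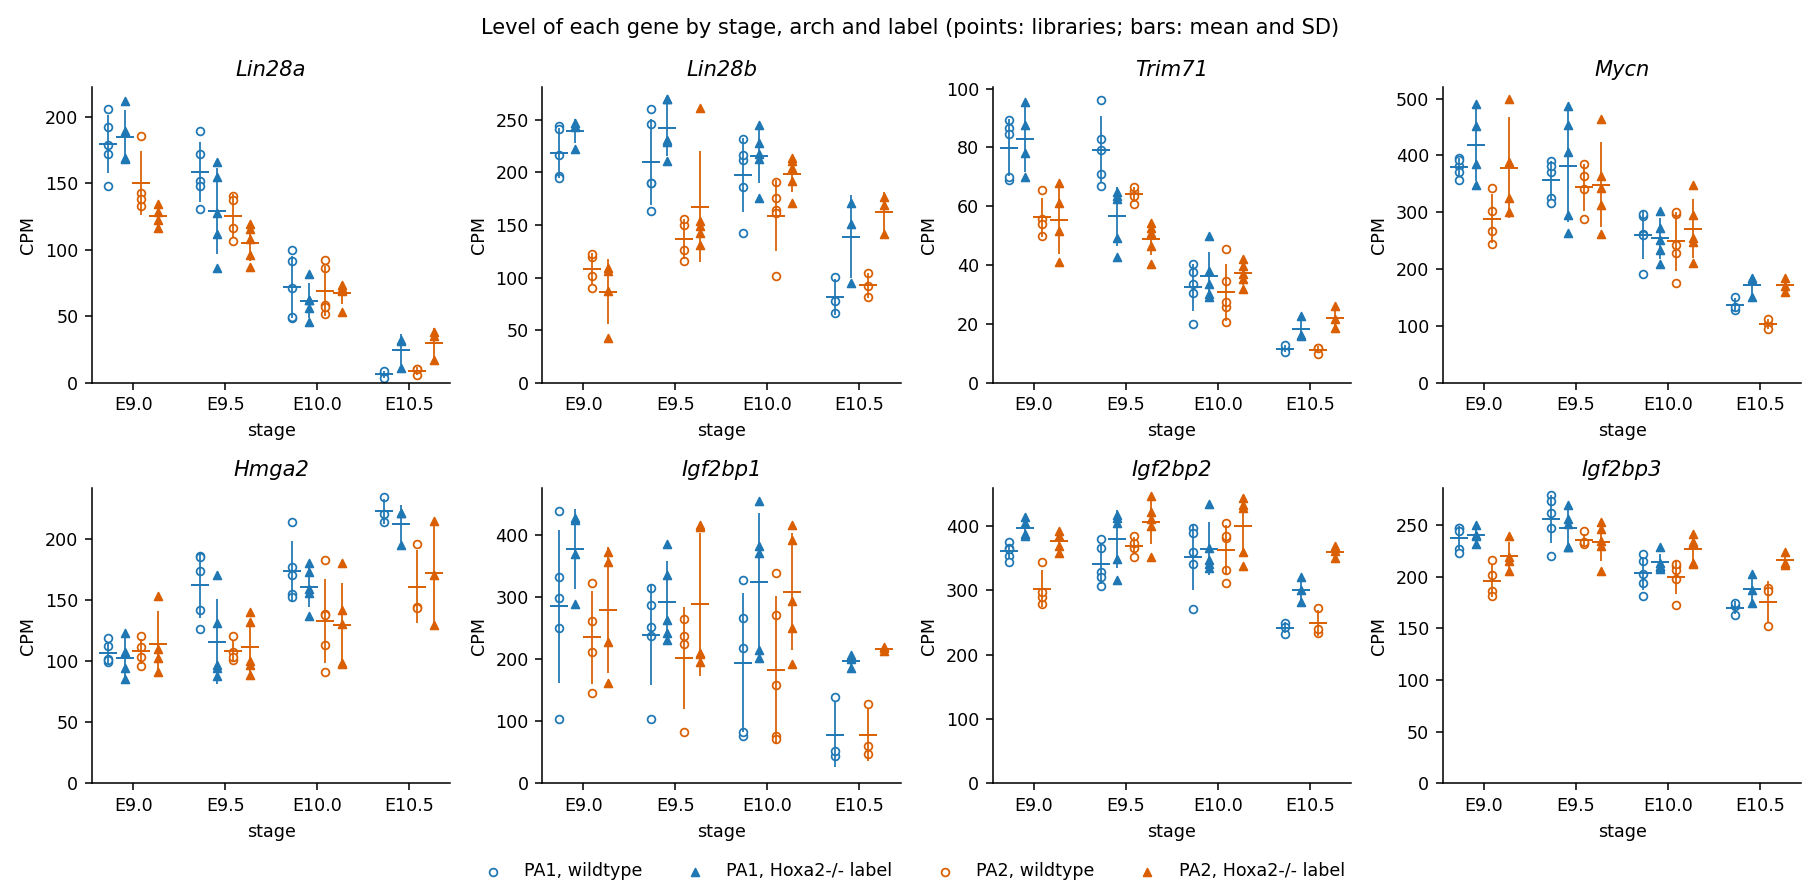
Level in CPM (linear axes from 0) of each of the 8 genes by stage; points are libraries, blue for PA1 and orange for PA2, open circles for wildtype and filled triangles for the Hoxa2-/- label, and bars are group means with SD. Lin28a and Trim71 are lowest at E10.5 in each of the 4 series of groups, Hmga2 means are highest at E10.5, and Igf2bp1 is widely spread within most groups.

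In the libraries labelled Hoxa2-/-, the means of Trim71 followed the stage order of Lin28a at lower levels. In PA1 labelled Hoxa2-/- it was at 87.6, 78.2, 95.4 and 70.0 CPM at E9.0, against 15.8, 22.8 and 16.1 CPM at E10.5, with means of 56.6 ± 9.94 (SD, n = 5) at E9.5 and 36.2 ± 8.42 (SD, n = 5) at E10.0. In PA2 with this label it was at 67.9, 61.0, 40.9 and 51.6 CPM at E9.0, against 18.7, 26.1 and 21.8 CPM at E10.5. In both arches every E10.5 library lay below every E9.0 library. Trim71 fell by 2.13 on the log2 scale in PA1 (SE 0.19, adjusted p = 2.2e-13 by limma) and by 1.27 in PA2 (SE 0.19, adjusted p = 2.6e-07). In wildtype the mean went from 79.8 ± 9.66 (SD, n = 5) to 11.6 ± 1.10 CPM (SD, n = 3) in PA1 and from 56.2 ± 6.73 (SD, n = 4) to 11.2 ± 1.23 CPM (SD, n = 3) in PA2. The wildtype PA2 mean of Trim71 at E9.5, 64.1 CPM, was above that of E9.0. At wildtype E10.5 Trim71 lay above Lin28a, whose means were 6.36 CPM in PA1 and 8.84 CPM in PA2.

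Mycn fell less. In PA1 labelled Hoxa2-/- it was at 385, 451, 348 and 491 CPM at E9.0, against 151, 183 and 182 CPM at E10.5. In PA2 with this label it was at 325, 388, 499.6 and 300.3 CPM at E9.0, against 160.5, 169.7 and 184 CPM at E10.5. The E9.0 and E10.5 libraries did not overlap in either arch. Mycn fell by 1.27 on the log2 scale in PA1 (SE 0.18, adjusted p = 1.1e-07 by limma) and by 1.11 in PA2 (SE 0.18, adjusted p = 1.59e-06). The wildtype means, described only, were 379 ± 15.6 (SD, n = 5) and 137 ± 12.0 CPM (SD, n = 3) in PA1, and 289 ± 42.9 (SD, n = 4) and 104 ± 8.79 CPM (SD, n = 3) in PA2.

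Hmga2 was the member that rose in both arches. In PA1 labelled Hoxa2-/- it was at 108, 123, 85.3 and 94.3 CPM at E9.0, against 221, 221 and 195 CPM at E10.5, so that the libraries of the 2 stages did not overlap. Its log2 change was 1.06 (SE 0.19, adjusted p = 2.12e-05 by limma), and the mean was 2.07 times that of E9.0. In PA2 with this label it was at 103, 91.6, 109.9 and 153 CPM at E9.0, against 215, 129.9 and 171 CPM at E10.5, and the 2 stages overlapped. The PA2 change was 0.58 (SE 0.19, adjusted p = 0.017). The PA2 call was lost when only the 2 compared groups were fitted (adjusted p = 0.107), and when embryo 1 at E10.5 or embryo 2 at E9.0 was left out (adjusted p up to 0.177). The wildtype means, described only, went from 107 ± 8.72 (SD, n = 5) to 223 ± 10.3 CPM (SD, n = 3) in PA1 and reached 161 ± 29.8 CPM (SD, n = 3) in PA2, from 121, 104, 111 and 96.3 CPM at E9.0.

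Lin28b moved in opposite directions in the arches labelled Hoxa2-/-. In PA1 it was at 243, 222, 244 and 247 CPM at E9.0, with means of 242 ± 26.3 (SD, n = 5) at E9.5 and 216 ± 25.7 (SD, n = 5) at E10.0. The E10.5 libraries of PA1 had 94.6, 151 and 171 CPM. In PA2 it was at 109, 106, 42.7 and 87.6 CPM at E9.0, and at 153, 131, 142, 261 and 149 CPM at E9.5. PA2 then had a mean of 198 ± 17.3 CPM (SD, n = 5) at E10.0, and 141, 176 and 169 CPM at E10.5. In PA1 the E10.5 libraries lay below those of E9.0, and in PA2 above them. Lin28b fell by 0.82 on the log2 scale in PA1 (SE 0.21, adjusted p = 0.00186 by limma) and rose by 0.98 in PA2 (SE 0.21, adjusted p = 0.000215). The PA1 call was lost without embryo 1 at E10.5 (-0.57, adjusted p = 0.0647), and the PA2 call when only the 2 compared groups were fitted (adjusted p = 0.0593).

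The PA2 libraries of Lin28b differ in their content of other tissues. The E9.0 library of embryo 3 labelled Hoxa2-/-, with Lin28b at 42.7 CPM, had a summed level of the 6 yolk sac endoderm markers of 421 CPM. Without the 6 libraries rich in yolk sac or red cell transcripts, which include this library, the PA2 rise of Lin28b was 0.68 (adjusted p = 0.00366 by limma). None of the 6 is a PA1 library labelled Hoxa2-/-, so the size of the PA1 fall could not change. In wildtype, described only, PA1 means of Lin28b were 219 ± 23.7 (SD, n = 5), 209.8 ± 40.9 (SD, n = 5), 198 ± 35.1 (SD, n = 5) and 81.4 ± 17.3 CPM (SD, n = 3) from E9.0 to E10.5. Wildtype PA2 had 126, 149, 116 and 156 CPM at E9.5, and means of 108 ± 15.4 (SD, n = 4) at E9.0, 159 ± 34.0 (SD, n = 5) at E10.0 and 92.6 ± 11.6 CPM (SD, n = 3) at E10.5. In wildtype PA1, Lin28b at E10.5 lay below all earlier libraries. In wildtype PA2, Lin28b at E9.0 and E10.5 overlapped.

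Igf2bp2 and Igf2bp3 changed less in the Hoxa2-/- label, and passed the threshold in PA1 and not in PA2. In PA1 labelled Hoxa2-/-, Igf2bp2 was at 405, 413, 388 and 384 CPM at E9.0, against 282, 321 and 300.0 CPM at E10.5, and fell by 0.40 on the log2 scale (SE 0.10, adjusted p = 0.00149 by limma). Igf2bp3 was at 239.9, 240.2, 232 and 250.2 CPM at E9.0, against 187, 202 and 174 CPM at E10.5, and fell by 0.36 (SE 0.08, adjusted p = 0.00028). The 2 stages did not overlap in PA1 for either gene. In PA2 the log2 changes were -0.06 for Igf2bp2 (adjusted p = 0.68) and -0.02 for Igf2bp3 (adjusted p = 0.864). Igf2bp1 had log2 changes of -0.91 in PA1 (adjusted p = 0.138) and -0.28 in PA2 (adjusted p = 0.695), neither past the threshold. When only the 2 compared groups were fitted, the PA1 change of Igf2bp1 passed (adjusted p = 0.000262). Wildtype changes from E9.0 to E10.5 are described only. The wildtype mean of Igf2bp1 was 3.62-fold lower in PA1, with overlap, and 3.01-fold lower in PA2, without overlap. Wildtype Igf2bp2 had log2 changes of -0.57 in PA1 and -0.28 in PA2, both without overlap. Wildtype Igf2bp3 had -0.48 in PA1, without overlap, and -0.16 in PA2, with overlap.

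Read against all genes, 6 of the 8 were called lower and 1 higher in PA1 labelled Hoxa2-/-, where 16.5% of the 18428 genes tested were called lower and 14.8% higher. In PA2 3 were called lower and 2 higher, where 15.1% were called lower and 15.8% higher. The median log2 change of the 8 was -0.87 in PA1 and -0.17 in PA2, and that of all genes -0.02 and 0.01. Both counts were the same without the 6 libraries rich in yolk sac or red cell transcripts, none of which is a PA1 library labelled Hoxa2-/-. In PA2 the count was 3 of 8 when only the compared groups were fitted.

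**Figure D2:**
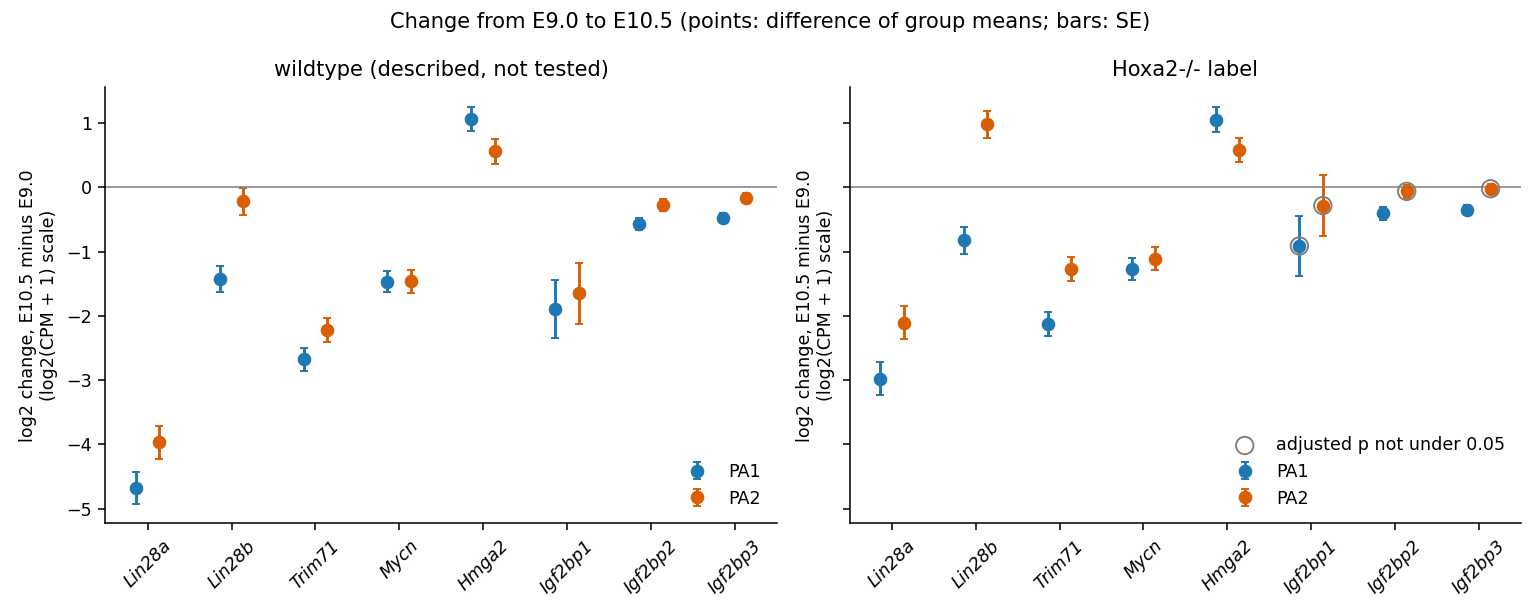
Log2 change from E9.0 to E10.5 of each gene in wildtype (left, described and not tested) and in the Hoxa2-/- label (right); points are differences of group means, bars are SE, blue is PA1, orange is PA2, and grey rings mark changes with an adjusted p not under 0.05. Lin28a lies lowest in both panels, Hmga2 lies above 0 in both arches, and Lin28b lies on opposite sides of 0 in the arches labelled Hoxa2-/-.

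Marker levels of other tissues also moved with stage in the libraries labelled Hoxa2-/-. The sum of the 6 surface and pouch epithelium markers was 826 to 926 CPM in PA1 at E9.0 and 423 to 441 CPM at E10.5, and 886 to 1341 and 336 to 423 CPM in PA2. The sum of the 4 neural tube markers in the table of 6 was 16.3 to 20.2 CPM in PA1 at E9.0 and 5.44 to 7.58 CPM at E10.5, and 15.2 to 27.5 and 6.08 to 7.29 CPM in PA2. The arch mesenchyme sum was 347 to 394 and 511 to 565 CPM in PA1, and 170.2 to 283 and 491 to 558 CPM in PA2. Of the 6 early embryo and germ cell markers 3 were in the table, with sums of 12.5 to 19.9 and 9.60 to 12.4 CPM in PA1, and 3.60 to 14.8 and 8.62 to 11.2 CPM in PA2. The part of these tissues in the changes of the 8 genes was not tested.

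Single steps of stage in the Hoxa2-/- label show when the changes passed. Of 48 tests, 8 were called, 7 lower and 1 higher. In PA1, Trim71 was the only member called from E9.0 to E9.5 (-0.55, adjusted p = 0.0483 by limma), where 2.85% of genes were called. From E9.5 to E10.0 Lin28a (-1.05, adjusted p = 0.0015), Trim71 (-0.64, adjusted p = 0.00848) and Mycn (-0.55, adjusted p = 0.0183) fell in PA1, where 4.4% were called. From E10.0 to E10.5 Lin28a (-1.39, adjusted p = 0.00314) and Trim71 (-0.94, adjusted p = 0.00419) fell in PA1, where 0.298% were called. Without embryo 1 at E10.5 these last 2 calls were lost, with a Lin28a change of -0.92 (adjusted p = 0.315) and an adjusted p of 0.138 for Trim71. The Mycn call was lost without each of 4 libraries (adjusted p up to 0.108) and the first Trim71 call without each of 5 (adjusted p up to 0.218).

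In PA2 labelled Hoxa2-/-, Lin28b was the member called from E9.0 to E9.5 (0.98, adjusted p = 0.000233 by limma), where 16.9% of genes were called. The E9.0 and E9.5 libraries did not overlap, and the step was 0.68 (adjusted p = 0.00716) without the libraries rich in yolk sac or red cell transcripts and had an adjusted p of 0.201 when only the 2 groups were fitted. No member was called from E9.5 to E10.0, where 4.57% of genes were called. At this step 3 members had an unadjusted p under 0.05, as did 3195 of the 18428 genes tested. Lin28a passed there (-0.63) when only the 2 groups were fitted (adjusted p = 0.0388) and, at -0.61, with a pseudocount of 5 (adjusted p = 0.0466). From E10.0 to E10.5 Lin28a fell by 1.21 (adjusted p = 0.0124), where 0.239% were called. Without embryo 1 at E10.5 that call was lost (-0.86, adjusted p = 0.545). When only the compared groups were fitted, 3 of the 48 tests over both arches were called, 2 of them among the 8.

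Levels per kilobase of exon place the genes beside each other. In PA1 labelled Hoxa2-/- at E9.0 the mean level per kilobase rose in the order Trim71 (8.87 CPM per kb), Hmga2 (15.1), Lin28b (26.4), Igf2bp3 (29.5), Igf2bp1 (39.0), Lin28a (46.3), Igf2bp2 (53.7) and Mycn (127). At E10.5 the order was Trim71 (1.96 CPM per kb), Lin28a (6.20), Lin28b (15.3), Igf2bp1 (20.4), Igf2bp3 (23.0), Hmga2 (31.4), Igf2bp2 (40.7) and Mycn (52.2). Lin28a thus moved from the sixth place to the second, and Hmga2 from the second to the sixth.

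Lin28b had the largest arch difference of the 8 genes at E9.0 in both labels. At E9.0 the 4 wildtype PA2 libraries had 119.9, 90.003, 122 and 101 CPM of Lin28b, and the 5 wildtype PA1 libraries had 244, 242, 197, 217 and 194 CPM, with no overlap. Lin28b was lower in PA2 by a log2 difference of -1.01 in wildtype (SE 0.18, adjusted p = 4.63e-05 by limma) and of -1.54 in the Hoxa2-/- label (adjusted p = 2.22e-08), where PA2 was 2.76-fold lower. At E9.5 the differences were -0.60 (adjusted p = 0.0123) and -0.57 (adjusted p = 0.0261), with overlap in the Hoxa2-/- label. At E10.0 they were -0.33 (adjusted p = 0.313) and -0.12 (adjusted p = 0.807), and at E10.5 0.20 (adjusted p = 1) and 0.26 (adjusted p = 0.758). The wildtype E9.5 call was lost without the PA2 library of embryo 3 (adjusted p = 0.0631), and that of the Hoxa2-/- label without each of 6 of its 10 libraries (adjusted p up to 0.0972).

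**Figure D3:**
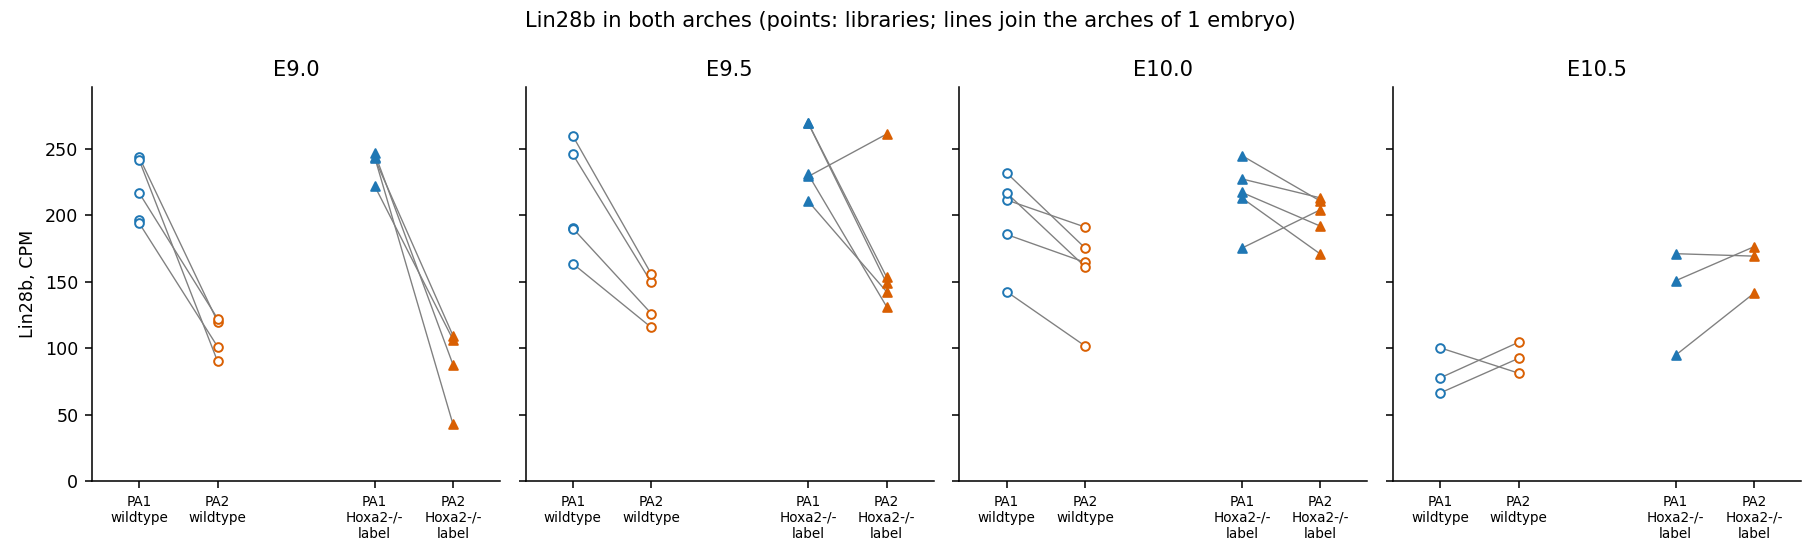
Lin28b level in CPM (axis from 0) in PA1 (blue) and PA2 (orange) at each stage, for wildtype (open circles) and the Hoxa2-/- label (filled triangles); points are libraries and grey lines join the 2 arches of an embryo. At E9.0 PA2 lies below PA1 in both labels without overlap, and at E10.5 the arches overlap in both.

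The change of Lin28b from E9.0 to E10.5 itself differed between the arches, by 1.21 in wildtype (SE 0.29, adjusted p = 0.00781 by limma) and 1.80 in the Hoxa2-/- label (SE 0.30, adjusted p = 5.74e-05). Without the libraries rich in yolk sac or red cell transcripts these differences were 1.18 (adjusted p = 0.00297) and 1.50 (adjusted p = 0.000106). In wildtype Lin28b was the only one of the 8 genes called, where 3.35% of all genes were called. In the Hoxa2-/- label Trim71 (0.86, adjusted p = 0.0345) and Igf2bp3 (0.33, adjusted p = 0.0487) were called too, where 7.33% were called, with the more negative change in PA1 for both. The calls of Trim71 and Igf2bp3 were lost without the rich libraries (adjusted p = 0.0763 and 0.0846), and without each of 8 and of 11 single libraries of 14. Both calls were also lost by edgeR and when only the compared groups were fitted. With the embryo as a block, which compares the arches within embryos, 9 of the 16 tests passed: 3 in wildtype, where the block called 5.83% of all genes, and 6 in the Hoxa2-/- label, where it called 14.1%. Among the 6 was Lin28a in the Hoxa2-/- label (0.87, adjusted p = 0.00078). The wildtype tests use the stage contrast that brought up Lin28a. The wildtype call of Lin28a is counted among the 9 and the 3 but is not read as a test.

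The arches differed in tissue content at E9.0, where Lin28b differed most. The arch mesenchyme sum was 385 to 439 CPM in wildtype PA1 and 184 to 233 CPM in wildtype PA2, and 347 to 394 and 170.2 to 283 CPM in the Hoxa2-/- label. The sum of the 5 heart muscle markers in the table (Nppa was not among them) was 9.02 to 22.6 CPM in wildtype PA1 and 20.2 to 660.3 CPM in wildtype PA2, and 13.9 to 34.9 and 54.1 to 699 CPM in the Hoxa2-/- label. The sum of the 5 cranial ganglion neuron markers in the table of 6 was 29.4 to 48.5 CPM in PA1 and 95.8 to 188 CPM in PA2 over both labels. The PA2 library of E9.5 with the highest Lin28b, at 261 CPM, was embryo 4 labelled Hoxa2-/-, which had a heart sum of 7.83 CPM against 31.8 to 465 CPM in the other 4, and a mesenchyme sum of 442 against 280 to 317 CPM. The part of these tissues in the arch difference of Lin28b was not tested.

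Over all 8 arch contrasts, 9 of 64 tests of the 8 genes were called, and all 9 were lower in PA2. Besides Lin28b, these were in wildtype at E9.0 Trim71 (-0.50, adjusted p = 0.025 by limma), Igf2bp2 (-0.26, adjusted p = 0.0315) and Igf2bp3 (-0.28, adjusted p = 0.00225). Hmga2 was called in wildtype at E9.5 (-0.57, adjusted p = 0.0104), and Trim71 in the Hoxa2-/- label at E9.0 (-0.59, adjusted p = 0.00884). In wildtype 4, 2, 0 and 0 members were called from E9.0 to E10.5, where 18.7%, 26.3%, 5.94% and 1.52% of genes were called. In the Hoxa2-/- label 2, 1, 0 and 0 were called, where 24.6%, 9.58%, 4.23% and 1.37% of genes were called. With the embryo as a block 15 of the 64 passed, 9 of them the same tests. From E9.0 to E10.5 the block called 6, 3, 1 and 0 members in wildtype, with 22.8%, 32.3%, 9.48% and 2.28% of all genes, and 4, 1, 0 and 0 in the Hoxa2-/- label, with 32%, 15.9%, 8.2% and 2.57%. The 6 added were Lin28a (wildtype E9.5, adjusted p = 0.03, and Hoxa2-/- label E9.0, adjusted p = 0.000232), Igf2bp1 (E9.0 in both labels, adjusted p = 0.00841 and 0.00793), Mycn (wildtype E9.0, adjusted p = 0.0212) and Hmga2 (wildtype E10.0, adjusted p = 0.044). Without the rich libraries the wildtype call of Igf2bp2 (adjusted p = 0.113) and the Hoxa2-/- label call of Trim71 (adjusted p = 0.0507) were lost. Single libraries also decided these calls: Trim71 lost its wildtype call without any of 5 of the 9 libraries (adjusted p up to 0.086) and Igf2bp2 without any of 6 (adjusted p up to 0.11), and Trim71 in the Hoxa2-/- label without the PA2 library of embryo 3 (adjusted p up to 0.0638).

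The genotype labels share a side of the library division at E10.0, and there none of the 8 genes was called in either arch. In PA1 none of the 18428 genes tested was called by limma or edgeR, that is 0%, and 424 of them had an unadjusted p under 0.05. In PA2 0.0814% of genes were called. Among the 16 tests of the 8 genes, 4 had an unadjusted p under 0.05 (1 in PA1 and 3 in PA2), and edgeR called none. Of all genes tested, 1420 had an unadjusted p under 0.05 in PA2. The log2 difference of Lin28a was -0.19 in PA1 and -0.00 in PA2. That of Igf2bp1 was 0.90 (adjusted p = 1) and 0.96 (adjusted p = 0.574).

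At the other stages the label and the library division coincide, so each difference belongs to either. The wildtype E10.5 level of Lin28a is a value that led to its choice, so Lin28a is described there and not tested: in PA2 it was at 16.9, 35.1 and 38.1 CPM in the Hoxa2-/- label and at 10.3, 5.64 and 10.6 CPM in wildtype, without overlap and with a log2 difference of 1.62, and in PA1 the difference was 1.74. Of the other 7 genes, 6 were higher in the Hoxa2-/- label in PA2 at E10.5, where 10.3% of genes were called. These were Igf2bp1 (1.59, adjusted p = 0.0321 by limma), Trim71 (0.92, adjusted p = 0.00128), Lin28b (0.80, adjusted p = 0.0139), Mycn (0.72, adjusted p = 0.00837), Igf2bp2 (0.53, adjusted p = 0.000577) and Igf2bp3 (0.30, adjusted p = 0.0122). The call of Igf2bp1 was lost without any of 5 of the 6 libraries and by edgeR (adjusted p = 0.0501), that of Lin28b without any of 3 (adjusted p up to 0.0703) and that of Igf2bp3 without either of 2 (adjusted p up to 0.175). The Igf2bp3 call was also lost when only the 2 groups were fitted (adjusted p = 0.0588). In PA1 at E10.5 none of the other 7 was called, where 3.05% of genes were called. Lin28b there had a difference of 0.74 (adjusted p = 0.0539), which passed by edgeR (adjusted p = 0.044). Igf2bp1 (1.51, adjusted p = 0.0497) and Igf2bp2 (0.31, adjusted p = 0.0348) passed in PA1 when only the 2 groups were fitted.

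Fewer members differed at the earlier stages. In PA2 at E9.0 Igf2bp2 was higher in the Hoxa2-/- label (0.32, adjusted p = 0.0153 by limma), where 14% of genes were called. In PA1 at E9.5 Hmga2 (-0.51, adjusted p = 0.0153) and Trim71 (-0.49, adjusted p = 0.0171) were lower, where 23.6% were called. No member was called in PA1 at E9.0 or in PA2 at E9.5, where 2.08% and 4.48% were called. The Hmga2 and Igf2bp2 calls were lost when only the compared groups were fitted (adjusted p = 0.0876 and 0.264). The Trim71 call was lost without any of 3 libraries (adjusted p up to 0.0665), that of Hmga2 without either of 2 (adjusted p up to 0.0638) and that of Igf2bp2 without wildtype embryo 2 (adjusted p = 0.0619). None of the 8 genes differed between the arches in its label difference at any stage by limma, edgeR or with the embryo block. By limma 0%, 0.0109%, 0.0163% and 0.038% of all genes were called from E9.0 to E10.5. Of the 32 tests, 1 had an unadjusted p under 0.05, Hmga2 at E9.5, where 815 of all genes did.

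Igf2bp1 varied among embryos of a group more than the other 7 genes. In wildtype PA1 at E10.0 its level was 76.2, 328, 267, 83.1 and 218 CPM in embryos 1 to 5, and in wildtype PA2 it was 76.9, 338, 272, 72.3 and 158 CPM in the same embryos. Embryos 1 and 4 were low and embryos 2 and 3 high in both arches. At E10.5 wildtype embryos 1 to 3 had 44.2, 139 and 52.4 CPM in PA1 and 48.0, 127 and 59.6 CPM in PA2, with embryo 2 the highest in both. The 3 embryos labelled Hoxa2-/- at E10.5 were close to each other, at 185, 207 and 201 CPM in PA1 and 213, 217 and 220.2 CPM in PA2. In 29 of 33 embryos Igf2bp1 lay on the same side of the group mean in both arches, against 19 embryos for the median gene, 19 for Hmga2 and 23 for Lin28a, Trim71 and Igf2bp3. The SD of its embryo deviations was 0.54 on the log2 scale, rank 18 among the 4829 genes with a mean of at least 50 CPM, against 0.30 for Lin28a and 0.14 for the median gene tested.

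**Figure D4:**
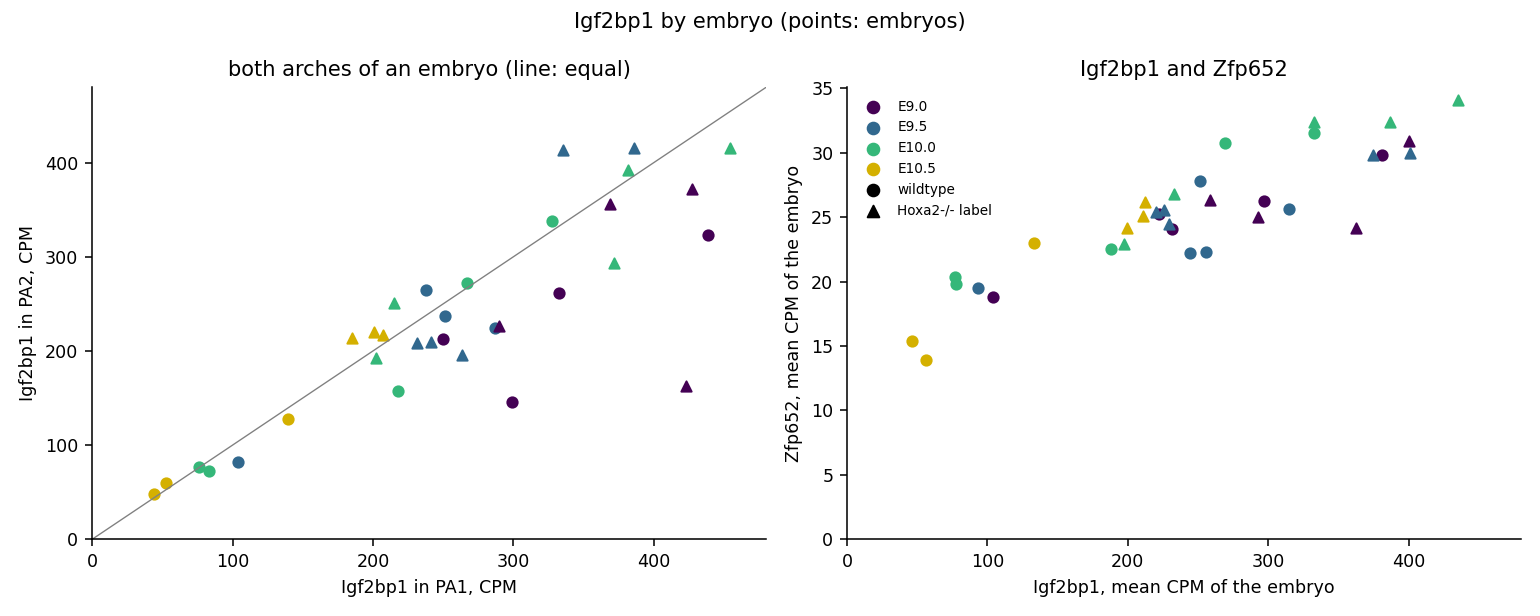
Left: Igf2bp1 in PA2 against PA1 of the same embryo, in CPM, for the 33 embryos with both arches, with a line of equal values. Right: Zfp652 against Igf2bp1, each as the mean CPM of the embryo, for all 35 embryos; colours are stages, circles wildtype and triangles the Hoxa2-/- label. On the left the embryos spread along the line of equal values, with all 8 of E9.0 below it. On the right, Zfp652 tends to be higher in embryos with more Igf2bp1.

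The genes whose embryo deviations were most like those of Igf2bp1 were looked for after its values were seen, over the 35 embryos, whose libraries are shared by all genes. Zfp652, a zinc finger gene 0.122 Mb from Igf2bp1, had r = 0.89. Cbx1, a heterochromatin protein gene 0.783 Mb away, had r = -0.88. Of the 10 genes with the largest r in either direction, 8 lay on chromosome 11, which holds 7.21% of the genes tested. All 8 were within 3 Mb of Igf2bp1, a window whose share of the genes tested was not counted. These 8 included B130006D01Rik, D030028A08Rik, Cisd3, Acsf2 and Pdk2, with r from 0.79 to 0.83. The remaining 2 were processed pseudogenes on other chromosomes, Gm9673 and Gm6612, which can share reads with their parent genes. In wildtype embryos 1 to 5 at E10.0, Zfp652 had mean levels of 20.4, 31.6, 30.7, 19.8 and 22.5 CPM and Cbx1 222, 148, 154, 229.6 and 185 CPM. Zfp652 was thus highest, and Cbx1 lowest, in the embryos with high Igf2bp1. Hoxa2 is on chromosome 6.

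Other genes of the pathway were counted from lists in the Hoxa2-/- label from E9.0 to E10.5. Of 14 genes of small RNA processing and silencing, 0 were called higher and 3 lower in PA1 (Drosha, Xpo5 and Tarbp2), and 4 higher and 0 lower in PA2; the medians were -0.07 and 0.22. The shares of all genes were 14.8% higher and 16.5% lower in PA1, and 15.8% and 15.1% in PA2, so 3 of 14 lower in PA1 is close to the background. Tut4 and Tut7, uridylyl transferases that tail let-7 precursors bound by Lin28a, had changes of 0.29 and 0.19 in PA1, short of the threshold, and rose by 1.11 (adjusted p = 5.17e-06 by limma) and 0.80 (adjusted p = 0.000698) in PA2. The PA2 mean of Tut4 went from 49.0 to 100.1 CPM. Dicer1, which cuts precursors to mature microRNAs, had a change of 0.03 in PA1 and rose by 0.72 in PA2 (adjusted p = 0.000329). Khsrp was the fourth gene higher in PA2.

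Of 17 other reported let-7 targets, 1 was called higher and 4 lower in PA1, and 8 higher and 2 lower in PA2, with medians of -0.24 and 0.10. The PA1 count, and the number lower in PA2, are near what the shares of all genes give (14.8% higher and 16.5% lower in PA1, 15.8% and 15.1% in PA2). The 8 higher in PA2 are more than that share gives. The 3 genes named next have the largest mean change over both arches in either direction, and all 3 means are negative. Mycl (0.78), Tgfbr1 (0.64) and Cdk6 (0.62) follow them, with positive means. Nr6a1, an orphan nuclear receptor gene of the early embryo, fell by 3.63 on the log2 scale in PA1 (206 to 16.2 CPM, adjusted p = 1.99e-13 by limma) and had a log2 change of -3.02 in PA2 (134 to 15.7 CPM, adjusted p = 4.62e-11), a larger change than that of Lin28a in each arch. Arid3b, a DNA-binding protein gene, had log2 changes of -1.31 and -1.92 (adjusted p = 1.96e-07 and 8.3e-12). Myc fell by 1.32 in PA1 (adjusted p = 4.07e-06) and had a change of -0.39 in PA2 (adjusted p = 0.182).

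Transcripts that hold let-7 hairpins on the same strand were read in place of let-7, of which they are no direct measure. By position, 7 transcripts hold 11 hairpins of the family; 6 of the 7 were in the table and 5 were tested. Of these 5, Mir99ahg, Wdr82 and Spaca6 were called higher and none lower in each arch, where 14.8% (PA1) and 15.8% (PA2) of all genes were called higher. Mir99ahg, the noncoding host of let-7c-1, was at 5.73 CPM at E9.0 and 25.8 CPM at E10.5 in PA1 (2.03, adjusted p = 2.87e-09 by limma), and at 4.47 and 29.4 CPM in PA2 (2.55, adjusted p = 3.77e-12). Wdr82, a protein-coding host of let-7g, rose by 0.78 in PA1 (59.9 to 103 CPM, adjusted p = 0.000242) and by 0.90 in PA2 (adjusted p = 3.07e-05). Spaca6, the host of let-7e, was low, at 1.20 CPM at E9.0 and 4.60 CPM at E10.5 in PA1 (1.36, adjusted p = 1.83e-06) and at 1.41 and 6.28 CPM in PA2 (1.60, adjusted p = 5.08e-08). Huwe1, which holds let-7f-2 and miR-98, had changes of -0.30 (adjusted p = 0.154) and 0.01 (adjusted p = 0.963). The noncoding 6720427I07Rik, which holds let-7a-1, let-7d and let-7f-1, had changes of 0.38 (adjusted p = 0.22) and 0.01 (adjusted p = 0.989) at 1.31 to 1.99 CPM. The host of let-7i, D630033A02Rik, was too low for the test, at 0.323 to 0.672 CPM. Of 4 RNAs reported to be bound by Igf2bp proteins, 1 was called higher and 1 lower in PA1, and 0 higher and 2 lower in PA2. Of all genes, 14.8% were called higher and 16.5% lower in PA1, and 15.8% and 15.1% in PA2. A list of 4 genes is too short to be read against these shares. Cd44, a cell surface glycoprotein gene, had log2 changes of -1.66 and -1.58 (adjusted p = 4.1e-06 and 9.11e-06), while Igf2, the growth factor gene from which the family takes its name, had changes of 0.02 and -0.33, and Actb, the actin gene, of -0.36 and -0.18, all short of the threshold. H19, the noncoding neighbour of Igf2, rose by 0.41 in PA1 (adjusted p = 0.0207) and fell by 0.37 in PA2 (adjusted p = 0.0413).

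**Figure D5:**
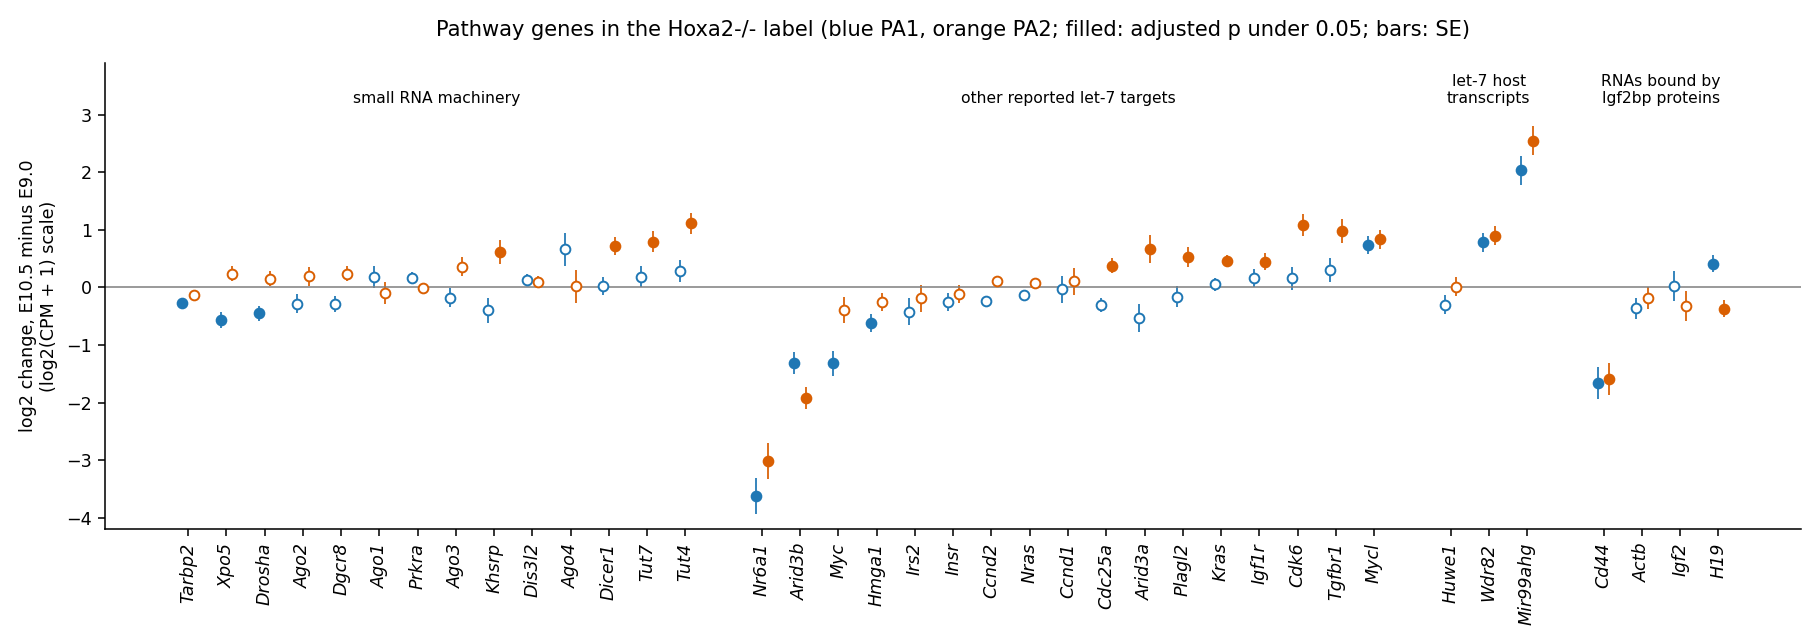
Log2 difference (E10.5 minus E9.0) in the Hoxa2-/- label for every tested gene of the 4 pathway lists (small RNA machinery, other reported let-7 targets, the 3 let-7 host transcripts listed by symbol, RNAs bound by Igf2bp proteins); blue is PA1, orange PA2, bars are SE, and filled points have an adjusted p under 0.05. Nr6a1 lies lowest and Mir99ahg highest in both arches, and Tut4, Tut7 and Dicer1 are filled in PA2 alone.

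The genes with the pattern most like that of a member were ranked by Pearson r of the mean log2(CPM + 1) over the 16 groups, which share embryos and, in part, the library division, so r is a description. Among the members, Lin28a had r = 0.98 with Trim71, 0.96 with Mycn, 0.55 with Lin28b and -0.80 with Hmga2. Outside them, Hdgf (r = 0.975), Eef1akmt4 (0.974), Rae1 (0.973) and Bend4 (0.971) were among the genes most like Lin28a. Sall4 (0.983), Htra2 (0.980), Nuak2 (0.976), Polr3d (0.974) and Chpf (0.973) were most like Mycn. Minos1 (0.966), Echs1 (0.953), Lix1l (0.946), Dus4l (0.933) and Cox19 (0.930) were most like Hmga2.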

How the data were processed

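Per the labels' protocols, polyadenylated RNA became cDNA by SMART-seq v4 and then Nextera XT libraries, 68 in all. The kit does not mark strand, so sense and antisense reads of overlapping genes cannot be told apart, and PCR copies were not marked by molecular identifiers. Per the submitters' processing notes, bcl2fastq 2.18, TopHat2 2.1.1, R 3.3.2 and the build mm10 were used; the counting program and annotation are not given in the sources used here. The authors deposited 1 table of values that resemble CPM, recorded here as a signal because column totals differ. Whole reads were recovered from 100% of the deposited values (tolerance 0.1 reads).

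Gene symbols of 21921 of 21948 identifiers and positions came from GENCODE M21 (GRCm38). Values were tested as log2(CPM + 1) by limma 3.58.1 (R 4.3.3), which fitted a mean for each of the 16 groups jointly and a prior variance that follows expression level. Tests were two-sided, with Benjamini-Hochberg adjustment over the 18428 genes with at least 1 CPM in at least 3 libraries, and a threshold of 0.05. The plan had assumed CPM and was run as written; its code was tested on simulated data. Alternatives were pseudocounts of 0.25 and 5, no filter or one at 5 CPM, scaling by median of ratios (which moved the median of all genes by at most 0.022), fitting only the compared groups, edgeR 4.0.16 on the recovered reads, the embryo as a block, and leaving out each library. Leaving out 6 libraries with a yolk sac sum over 50 CPM or a red cell sum over 20000 CPM was added after seeing the data.

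Replicates are separate embryos per the series text, which also says that PA1 and PA2 come from 1 embryo. Same-embryo deviations from the group means correlated with a median r of 0.35 over 33 pairs (30 of them over 0.1), against -0.13 over 108 pairs of other embryos. Deviations from a group mean balance out within the group, so a positive same-embryo r itself tends to make that of other embryos negative. The -0.13 is thus no separate baseline. The members and the gene lists were chosen with earlier results of these data known. Named are the 8 members, the 3 genes of each pathway list with the largest mean log2 change over both arches of the Hoxa2-/- label, and the 5 most alike genes of Lin28a, Hmga2 and Mycn. The 3 further machinery genes lower in PA1, Khsrp, H19, Mycl, Tgfbr1, Cdk6, the let-7 hosts found by position and the genes alike to Igf2bp1 were named after their values were seen. Some genes that these rules name are not reported here.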

Additional observations from a re-analysis of the deposited data

Results flagged for a closer look

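The values of each member were screened within the groups of 4 or 5 libraries for a library far from the others. This made 96 pairs of gene and group, and chance alone marks about 1 in 20. Of the 96, 5 were marked, which is near that share. Lin28a in PA2 labelled Hoxa2-/- at E10.0 was at 52.9 CPM in embryo 2, against 69.4 to 73.7 CPM in the other 4. Lin28b in PA1 labelled Hoxa2-/- at E9.0 was at 222 CPM in embryo 2, against 243 to 247 CPM. In PA2 labelled Hoxa2-/- at E9.5 it was at 261 CPM in embryo 4, against 131 to 153 CPM. Igf2bp3 in PA1 labelled Hoxa2-/- at E10.0 was at 229 CPM in embryo 1, against 208 to 213 CPM, and in wildtype PA2 at E9.5 it was at 244 CPM in embryo 2, against 232 to 233 CPM.

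The stage change (E10.5 minus E9.0) differed between PA2 and PA1 for 3 members by limma's test of the difference. For Lin28b it was higher in PA2 by 1.21 in wildtype (adjusted p = 0.00781) and by 1.80 in the Hoxa2-/- label (adjusted p = 5.74e-05). In the Hoxa2-/- label it was higher in PA2 by 0.33 for Igf2bp3 (adjusted p = 0.0487) and by 0.86 for Trim71 (adjusted p = 0.0345). Of all genes, 3.35% were called in wildtype and 7.33% in the Hoxa2-/- label. The Igf2bp3 and Trim71 calls were lost by edgeR (adjusted p = 0.0607 and 0.0509). Limma on only the compared groups lost both too (adjusted p = 0.136 and 0.102), and limma with median-of-ratios scaling lost that of Igf2bp3 (adjusted p = 0.067).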

How the results depend on the processing

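Fitting only the compared groups gave 3 member calls for the stage change in PA2 labelled Hoxa2-/- (5 with all groups), 3 over the single steps of stage (8, of which 2 were shared) and 2 over the differences of stage change between arches (4). That last count was also 2 by edgeR on the recovered reads and 2 without the 6 libraries rich in yolk sac or red cell transcripts, and 2 to 5 with single libraries left out. For these differences edgeR called 609 of all genes in wildtype and 913 in the Hoxa2-/- label, against 617 and 1351 by limma. The share of all genes called was not counted when only the compared groups were fitted or with libraries left out. The replicate block by embryo gave 15 calls over the arch contrasts (9 without it) and 9 over the differences of stage change, and it lost no call. With single libraries left out, the counts of member calls were 6 to 7 for the stage change in PA1 and 4 to 5 in PA2, 6 to 12 over the steps, 7 to 10 over the arch contrasts, 0 to 0 for the label at E10.0, 8 to 12 for the label at other stages and 0 to 0 for the label difference between arches. The 8 to 12 include the Lin28a differences at E10.5, and the 9 of the block include the wildtype change of Lin28a. These Lin28a values are described and not read as tests. Igf2bp1 in wildtype at E9.0, not called, had a PA2 minus PA1 difference of -0.19 that ran from -0.51 to 0.02224 with single libraries left out; the -0.51 is without PA1 embryo 3, which has no PA2 library, and the replicate block, which also leaves it out, gave the same difference with an adjusted p of 0.00841 by limma. Each member had at least 67 reads in every library, and the groups of E10.5 hold 3 embryos each, the fewest of any stage.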
